A study of Drosophila melanogaster with 34 samples.

Results

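The sites described here are called core sites. They had a peak in every ChIP-seq peak list analysed for the zinc finger proteins Crooked legs (Crol) and Combgap (Cg). The Cg lists came from larval tissues only. A core site is a Crol peak of wild-type (WT) brains and imaginal discs, on X, 2L, 2R, 3L, 3R or 4 and under 1200 bp wide, that overlapped by at least 1 bp a peak of each of the other 4 lists. The lists are named by protein and source, as Crol WT, Crol crol-KO, Cg WT, Cg crol-KO and Crol S2. This rule gave 4396 sites among the 10139 WT Crol peaks on those arms, and the 5 lists together held 47852 peaks. A peak of another list could match more than 1 core site, as 177 of 4211 S2 peaks did, and its values then count at each. Because presence in the lists chose the sites, their presence, fold enrichments and read pileups are given as a description with no test.

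Chromatin for the larval lists came from brains and imaginal discs of Drosophila melanogaster larvae at the third instar, either WT or crol-KO, in which crol had been deleted by CRISPR/Cas9. Crol was precipitated with CrolN, a rabbit antibody against the N-terminal part of the protein, in both genotypes and in S2 cells, a cultured line of embryonic origin. Cg was precipitated from the larval tissues of both genotypes with an antibody made in earlier work. Each of the 5 groups had 2 samples whose reads the authors pooled before peak calling, so each group was represented by 1 list and no value below has a replicate check. The S2 samples were grouped by their titles, although their tissue label reads differently. As models the groups have limits. A faint Crol signal remains on Western blots of crol-KO larvae, which the study attributes to protein from the mother, and brains and discs mix many cell types, so that less binding in all cells and binding in fewer cells cannot be told apart.

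Crol is a C2H2 zinc finger protein that is induced by the steroid hormone ecdysone and is needed for leg development at metamorphosis. Cg is a zinc finger protein of Polycomb response elements (PREs), the DNA elements at which Polycomb group complexes assemble to keep developmental genes silent. PREs work as platforms where several DNA-binding proteins sit side by side, and imaginal discs, the larval precursors of adult appendages, are a tissue in which such silencing is classically studied.

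Between 3.42 M reads (Cg WT) and 5.77 M reads (Crol S2) lay behind each list, as solved from the values of its peaks. Values called pileup below are the reads that cover the summit of a peak, the fold enrichment is the authors' ratio of that pileup to the local background from a control, and pileups are compared between lists after scaling to the reads of each list (RPM, reads per 1 M). Intervals are 95% intervals, exact Clopper-Pearson for shares and exact binomial for medians. Positions are those of the dm3 assembly, and the genes at the sites were not analysed here. The intervals cover counting error only and treat sites as independent, which neighbouring sites are not.

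Of the other lists, the S2 list was the one most often without an overlapping peak. Of the 10139 WT Crol peaks, 787 were 1200 bp or wider, and 596 of these also overlapped all other lists. Of the 9352 narrower ones, 80.1% overlapped a Crol crol-KO peak, 74.0% a Cg WT peak, 74.6% a Cg crol-KO peak and 56.7% a Crol S2 peak. All 4 overlaps were met by 47.0% (46.0 to 48.0). A further 1787 sites lacked only the S2 peak and are called larval sites absent from S2 below. Far fewer sites lacked only 1 of the larval lists: 86 lacked only the Crol crol-KO peak, 242 only the Cg WT peak and 87 only the Cg crol-KO peak.

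The share of core sites grew with the strength of WT Crol binding, which the overlap rule favours. Among the weakest 10% of the 9352 peaks by fold enrichment, 24.4% (21.7 to 27.3) were core sites, and among the strongest 10% the share was 74.9% (72.0 to 77.6). Among the 500 strongest narrow peaks 387 were core sites, and 103 of the 500 had no S2 peak, against 7 with no Crol crol-KO peak, 3 with no Cg WT peak and 17 with no Cg crol-KO peak. The S2 list was thus the one most often missing at strong larval Crol sites. Among the 20 strongest, 19 were core sites, and the other was a peak on 2R from 2462009 to 2463115, named because it was the single exception. Its fold enrichment was 11.3 (Crol WT), 6.30 (Crol crol-KO), 7.90 (Cg WT) and 6.95 (Cg crol-KO), with no S2 peak over it.

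By chromosome, the share of narrow WT Crol peaks that were core sites lay between 44.7% (42.5 to 46.9) on 3L and 49.2% (46.9 to 51.6) on 2R for the long autosome arms. It was 45.3% (42.9 to 47.8) on X, with 748 core sites. On the small chromosome 4 it was 62.7% (51.3 to 73.0), from 52 of 83 peaks, and this interval did not overlap that of any other arm except 2R. The largest number of core sites, 1031, lay on 3R.

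The width limit cut through sites of very different strength. The widest sites inside it were on 3R from 10151815 to 10153013 (1199 bp, WT Crol fold enrichment 3.75), on 2R from 11236780 to 11237976 (1197 bp, 11.8) and on 2R from 9877764 to 9878959 (1196 bp, 3.53). The narrowest otherwise like sites outside it were on X from 4216040 to 4217240 (1201 bp, 6.33), on 3R from 25830360 to 25831562 (1203 bp, 2.85) and on 2R from 5912625 to 5913828 (1204 bp, 8.48). Measured as bp of the WT Crol peak covered, the overlap rule was rarely met by a narrow margin. A reciprocal overlap of 50%, which also counts the width of the other peak, was met by 3083 sites. At the median core site the matching peak covered 511 bp (Crol crol-KO), 488 bp (Cg WT), 501 bp (Cg crol-KO) and 506 bp (Crol S2) of the WT Crol peak. An overlap under 100 bp occurred at no more than 4 sites in any list, and the smallest was 11 bp.

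In each list the core sites spanned nearly the whole range of strength. The median fold enrichment in the Crol WT list was 3.76 (3.70 to 3.82), with 4.36 (4.31 to 4.41) in Crol crol-KO, 4.22 (4.17 to 4.27) in Cg WT, 4.80 (4.74 to 4.87) in Cg crol-KO and 5.81 (5.73 to 5.92) in Crol S2. The middle 80% of core sites ran from 2.50 to 6.44 for Crol in WT and from 3.35 to 11.3 for Crol in S2 cells, the widest spread of the 5 lists. At the median core site 76 reads covered the WT Crol summit and 134 the S2 summit. Presence in every list was therefore not the same as strong binding in every list.

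**Figure D1:**
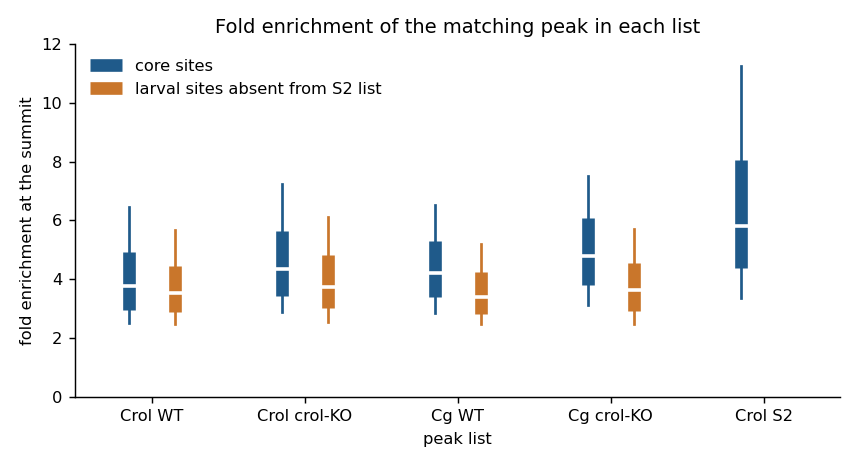
Fold enrichment at the summit (vertical axis) of the peak matched to each site in each of the 5 lists (horizontal axis), for the 4396 core sites and the 1787 larval sites absent from the S2 list. White lines are medians, thick bars the middle 50% and thin lines the middle 80% of sites. The distributions overlap widely, and the medians of core sites are the higher ones in the 4 larval lists, from 3.76 against 3.51 (Crol WT) to 4.80 against 3.62 (Cg crol-KO); the larval sites have no S2 value.

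Compared with the larval sites absent from S2, the core sites were stronger in all 4 larval lists. The median WT Crol fold enrichment of those 1787 sites was 3.51 (3.46 to 3.58), against 3.76 at core sites, and in the Crol crol-KO list it was 3.72 (3.66 to 3.79) against 4.36. Their median Cg fold enrichment in WT was 3.402 (3.35 to 3.46) against 4.22. In reads, the median WT Crol pileup was 59 (58 to 60) at these sites and 76 (74 to 77) at core sites. As ranks, the median core site lay at 39.8% of the WT Crol list counted from the strongest peak and at 35.5% of the WT Cg list, and the median larval site absent from S2 lay at 46.1% and 57.2%. Thus sites that Crol also held in S2 cells carried larval Cg peaks of higher rank. The control itself differed between these sets. The local background at the WT Crol summit was 1.86 (1.85 to 1.88) times the genome-wide background at the median core site and 1.53 (1.51 to 1.56) times at the median larval site absent from S2, and the part of this difference in the fold enrichments was not tested.

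Sites of Crol without Cg lay at the other end. Of the narrow WT Crol peaks, 453 overlapped a Crol peak in crol-KO and no Cg peak in either genotype, and their median fold enrichment was 2.72 (2.65 to 2.77) for Crol in WT and 2.58 (2.49 to 2.66) for Crol in crol-KO. Their median width was 423 bp (407 to 439), against 548 bp (541 to 555) for core sites. Of these 453 sites, 142 had an S2 peak, and its median fold enrichment of 5.95 (5.05 to 7.46) was near the 5.81 of core sites, with overlapping intervals.

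The order of strength was only partly shared between lists. Across the 4396 core sites, Spearman's rho of the fold enrichments was 0.73 between Cg in WT and in crol-KO, 0.66 between Crol in WT and in crol-KO and 0.54 between Crol and Cg in WT. It was 0.70 between Crol and Cg in crol-KO. With Crol in S2 cells it was 0.49 for WT Crol but 0.27 for WT Cg. These are descriptions over sites of 1 list per group, and the local backgrounds of lists of 1 genotype nearly coincided, at 1.86 times the genome-wide one in both WT lists. In all 5 lists at once, 82 core sites (1.87%, 1.49 to 2.31) were in the strongest 10% of peaks, 1604 were in the strongest 50% and 231 in the weakest 50%.

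The strongest site of all 4 larval lists was 1 core site, on X from 10234005 to 10234548. Its summit was covered by 210 reads (Crol WT), 252 (Crol crol-KO), 191 (Cg WT), 215 (Cg crol-KO) and 238 (Crol S2), over a background of between 8.56 and 18.0 reads. The fold enrichments were 18.2, 19.1, 20.1, 21.7 and 12.6 in the same order. All 5 summits lay within 8 bp. It was first by rank in each larval list but at place 481 of 9593 in S2 cells, so even this site was not at the top everywhere.

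The 8 core sites whose worst rank among the 5 lists was best are named in that order as sites 1 to 8. Site 1, on 3R from 12694846 to 12695583, had pileups of 225 reads (Crol WT), 306 (Crol crol-KO), 250 (Cg WT), 233 (Cg crol-KO) and 418 (Crol S2), with fold enrichments between 10.3 and 17.4. Its lowest place was 140 of 9593, in the S2 list, and it was at place 3 of the WT Cg list. Site 2 lay on 2R from 3239657 to 3240408, with fold enrichments between 8.12 (Crol in WT) and 16.8 (S2 cells), and site 3 on 2R from 18576199 to 18576864, with 8.80 (Crol in crol-KO) to 17.2 (S2 cells). These 2 sites were nearly equal in the WT Cg list, at 9.59 each. Site 4, on X from 7520641 to 7521695, stood out for Crol over Cg, with 13.0 for Crol in WT, 26.5 in S2 cells and 8.68 for Cg in WT. Site 5, on 2R from 15614476 to 15615156, had 8.83 for Crol in WT and 14.4 for Crol in crol-KO.

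Site 6, on 3L from 13221314 to 13222199, had the most reads of the 8 in the 3 Crol lists, with 331 (Crol WT), 411 (Crol crol-KO), 247 (Cg WT), 220 (Cg crol-KO) and 580 (Crol S2), but also the highest backgrounds in the larval lists, between 25.6 and 34.9 reads. Its fold enrichments in the larval lists therefore resembled those of sites with far fewer reads, while that in S2 cells was 25.9. Site 7, on X from 20631236 to 20631983, had fold enrichments between 9.93 (Crol in WT) and 13.8 (S2 cells), and its 5 summits spanned 13 bp. Site 8, on 2R from 4138956 to 4139457, had the fewest reads in the larval lists, with 138 for Crol in WT and 81 for Cg in WT, over 12.2 and 9.76 background reads. Of the 8, 4 had their lowest rank in the S2 list, sites 4 and 6 in the Cg crol-KO list, site 2 in the Crol WT list and site 3 in the Crol crol-KO list.

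**Figure D2:**
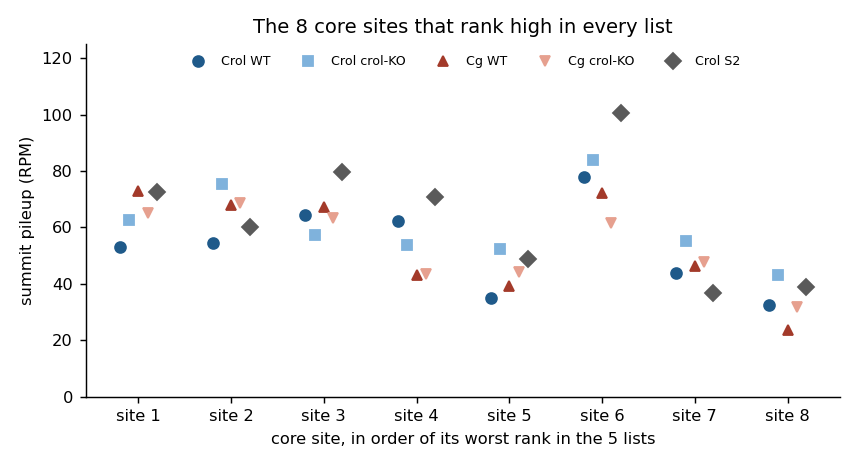
Summit pileup in RPM (vertical axis) of the 8 core sites that rank high in every list (horizontal axis, sites 1 to 8), with 1 point for each of the 5 lists. Site 6 is highest in the 3 Crol lists, up to 100.6 in S2 cells, and site 8 is lowest in the 4 larval lists, from 23.7 for Cg in WT to 43.1 for Crol in crol-KO.

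The S2 list had a different leader. The core site with its highest fold enrichment was on X from 9479346 to 9480299, with 32.2 in S2 cells against 5.65 (Crol WT), 4.48 (Crol crol-KO), 2.94 (Cg WT) and 6.79 (Cg crol-KO). The summits there did not coincide. Relative to the WT Crol summit, the S2 summit lay at -1034 bp, the crol-KO Cg summit at -1161 bp and the WT Cg summit at 285 bp, so the lists overlapped at this site without marking the same position.

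The 3 weakest core sites, those whose best rank was worst, were of more than 1 kind. On X from 21785010 to 21785383 the pileups were high, at 258 (Crol WT), 221 (Crol crol-KO), 230 (Cg WT), 164 (Cg crol-KO) and 451 reads (Crol S2), but the fold enrichments were only between 1.58 and 1.87. The background at this site was 14.2 times the genome-wide one in the WT Crol list and 19.8 times in the S2 list, and it was the single core site with a background over 5 times the genome-wide one in the WT Crol list. Its presence in every list thus came with a control signal as high as at no other core site. The others, on 2L from 4334468 to 4334902 and on 3L from 18738851 to 18739150, had few reads, between 41 and 57 at the first and between 33 and 60 at the second, with fold enrichments of at most 2.55 and 2.71.

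The summits of the lists lay close together at most core sites. From the WT Crol summit, the median distance was 34 bp (32 to 35) to the Crol crol-KO summit, 36 bp (34 to 38) to the Cg WT summit, 37 bp (35 to 38) to the Cg crol-KO summit and 38 bp (37 to 40) to the S2 summit. A Cg summit was therefore nearly as close to the Crol summit as the summit of the same protein in the other genotype or in another cell type. The signed offsets had medians between -1 and 1 bp along the chromosome. For reads extended to 300 bp, these distances are far below the fragment length, and they do not separate 2 proteins bound side by side.

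All 5 summits lay within 50 bp of each other at 959 of the 4396 core sites (21.8%, 20.6 to 23.1), within 100 bp at 53.8% (52.3 to 55.3) and within 300 bp at 81.7% (80.6 to 82.9). The smallest span was 7 bp, on 3L from 711818 to 712466, a site named after its values were seen, where the fold enrichment was 6.80 (Crol WT), 8.70 (Crol crol-KO), 5.25 (Cg WT), 5.98 (Cg crol-KO) and 16.2 (Crol S2). Over the 4 larval lists alone, the median span was 73 bp (70 to 75) at core sites and 98 bp (94 to 101) at larval sites absent from S2. At 803 core sites the 5 summits spanned over 300 bp, and at 437 of these (54.4%) the summit farthest from the median of the 5 was that of S2 cells. The S2 peaks were also the widest. Their median width was 716 bp (701 to 731), and 951 core sites (21.6%) lay under an S2 peak of 1200 bp or more, against 383 (8.71%) under such a peak of the Crol crol-KO list, 367 (8.35%) of Cg crol-KO and 173 (3.94%) of Cg WT.

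**Figure D3:**
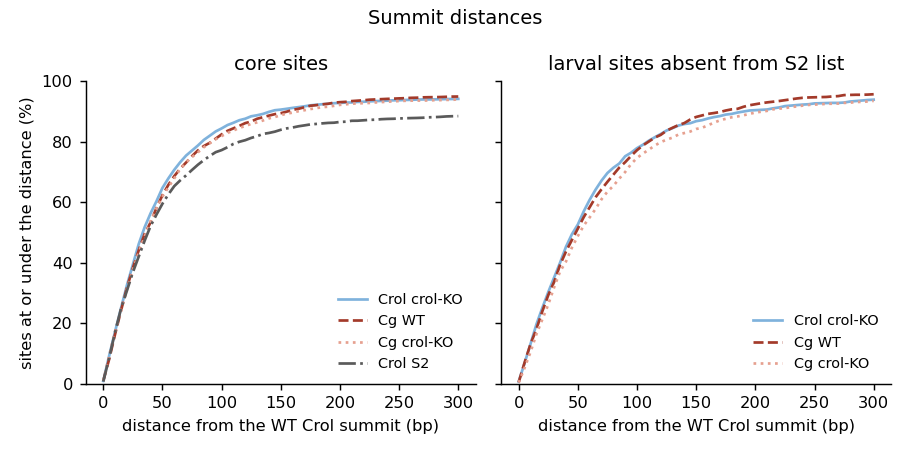
Share of sites (vertical axis, percent) whose summit in a list lies at or under a given distance in bp from the WT Crol summit (horizontal axis), for the 4396 core sites (left) and the 1787 larval sites absent from the S2 list (right), with 1 line per list. At core sites the lines rise together up to their medians of 34 to 38 bp, and the S2 line stays lowest beyond; at the larval sites the medians are 46 to 52 bp.

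Summits were closer where WT Crol was stronger. From the weakest to the strongest quintile of core sites by WT Crol fold enrichment, the share with all 5 summits within 50 bp went from 13.8% (11.6 to 16.2) to 27.5% (24.6 to 30.6), and the median distance between the WT Crol and WT Cg summits from 49 to 33 bp. The median pileup at the WT Crol summit rose over the same quintiles from 49 to 139 reads, and its part in the summit distances was not tested.

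The crol-KO lists were set beside WT to ask how much Crol and Cg the core sites held when crol had been deleted. In RPM, the median ratio of the summit pileup in crol-KO to that in WT was 1.124 (1.115 to 1.133) for Crol and 1.08 (1.07 to 1.09) for Cg. The middle 80% of core sites ran from 0.771 to 1.46 for Crol and from 0.826 to 1.38 for Cg. The Crol signal was thus not lower in crol-KO at the typical core site, although overlap with a crol-KO peak was part of the rule and removes sites that lost theirs. Over all 8250 WT Crol peaks matched in crol-KO the median ratio was 1.08, and centred on it the core sites were at 1.04 for Crol. The ratio says nothing about absolute amounts, since both libraries were scaled to their own reads.

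Past 1.5-fold, 354 core sites (8.05%, 7.27 to 8.90) had a higher Crol pileup in crol-KO, beside 8.73% of all WT Crol peaks matched in crol-KO, and 263 (5.98%, 5.30 to 6.72) had a lower one, beside 9.93% of all. Both shares rest on a contrast the rule used, and nothing is read from them. Centred on the median of all matched peaks, 180 core sites were higher and 351 lower, so the balance between the directions depends on the scaling. For Cg, 201 core sites (4.57%) were higher past 1.5-fold, beside 5.54% of all WT Cg peaks matched in crol-KO, and 75 (1.71%) were lower, beside 1.83%. Large ratios went with summits that moved. Where the WT and crol-KO Crol summits were within 100 bp of each other (3708 core sites), 6.63% were higher and 4.91% lower past 1.5-fold, and where they were farther apart (688 sites) the shares were 15.7% and 11.8%.

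The extremes show both cases. The lowest Crol ratio was on X from 12650234 to 12650910, where 158 reads covered the summit in WT and 49 in crol-KO, and 48 and 44 for Cg, a ratio of 0.27 for Crol (counting interval 0.19 to 0.37) and 0.88 for Cg (0.57 to 1.35). The crol-KO Crol summit lay 50 bp from that of WT, so Crol fell at the same position, and in S2 cells the site had 791 reads. Next was a site on 3L from 8967347 to 8968192, with 208 Crol reads in WT and 67 in crol-KO, and 61 and 58 for Cg, which was at place 6 of the S2 list. There the crol-KO Crol summit lay 243 bp away. The next, on 3R from 10478725 to 10479463, had 160 Crol reads in WT and 55 in crol-KO, and 55 and 47 for Cg, but only 92 reads in S2 cells. These 3 were chosen for the lowest Crol ratios, so that their Crol intervals lay below 1 follows from the choice. The intervals of the Cg ratio included 1 but reached down to between 0.54 and 0.62, so they do not show that Cg was kept.

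The highest Crol ratios were of the other kind. On 2L from 19425281 to 19425583, 38 Crol reads in WT stood against 195 in crol-KO, and 29 Cg reads against 187, but the crol-KO summits lay 1191 and 1201 bp from that of WT Crol, and the overlap of the peaks was as small as 27 bp. On X from 16229206 to 16229795 (41 and 200 Crol reads) and on 3L from 13913631 to 13913965 (36 and 173), the crol-KO summit lay at -1900 and -690 bp from that of WT. These ratios thus compare summits at different positions. The same held for the lowest Cg ratio, on 3R from 4493732 to 4494455 (120 reads in WT, 37 in crol-KO), where the 2 Cg summits were on opposite sides of the WT Crol summit, at 1352 and -46 bp. At the next lowest, on 2R from 7060806 to 7061592, Cg had 110 reads in WT and 37 in crol-KO, and Crol had 126 and 79. The 2 Cg summits were closer together there, at -132 and -9 bp from the WT Crol summit, but still over 100 bp apart. The second highest Cg ratio, on X from 12984914 to 12985224 (32 and 102 reads), again had the crol-KO Cg summit 927 bp away.

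Core sites with less Crol in crol-KO also differed in the other lists. The 263 sites with a Crol pileup lower past 1.5-fold had a median Cg ratio of 0.891 (0.854 to 0.924), against 1.08 (1.07 to 1.08) for the 3779 sites within 1.5-fold and 1.19 (1.17 to 1.22) for the 354 higher ones. The Cg medians were thus ordered as the Crol classes were. However, 81 of the lower and 108 of the higher sites had WT and crol-KO Crol summits over 100 bp apart. At these the ratio compares different positions, and the part of peak matching in the order was not tested. The median fold enrichment of the 263 lower sites was 9.57 for Crol in S2 cells against 5.74 for sites within 1.5-fold, and 3.74 against 4.27 for Cg in WT. Since a low ratio also picks sites with a high WT Crol pileup, the comparison was repeated within quintiles of WT Crol fold enrichment. The quintiles narrow this choice but do not remove it, as the strongest ran from 5.32 to 18.2. A low ratio also picks sites with little Crol in crol-KO. Across core sites that fold enrichment went with Cg, with a rho of 0.56 for Cg WT and 0.70 for Cg crol-KO. In the strongest quintile, 164 sites had a lower Crol pileup in crol-KO. Their median fold enrichment was 10.98 (9.76 to 13.0) in S2 cells and 4.15 (3.96 to 4.35) for Cg in WT, and that of the other 716 sites was 8.81 (8.50 to 9.15) and 5.93 (5.79 to 6.14). In the next quintile, the 60 such sites had 8.45 (7.26 to 10.3) in S2 cells and 3.39 (3.09 to 3.73) for WT Cg, against 6.70 (6.42 to 6.91) and 4.99 (4.86 to 5.07) at the other 819. In the middle quintile, where only 24 sites had a lower Crol pileup, and in the one below it, with 13, the intervals overlapped for S2 cells but not for Cg. The median Cg ratio of the lower sites was 0.872 (0.834 to 0.909) in the strongest quintile, against 1.10 (1.09 to 1.11) at the others, and 0.958 (0.847 to 1.01) against 1.09 (1.07 to 1.11) in the next. In the 2 quintiles below, it was 0.906 (0.816 to 1.10) and 0.939 (0.719 to 1.21), and these intervals overlapped those of the other sites. The classes were cut from a contrast that the rule used, and all these values are a description.

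**Figure D4:**
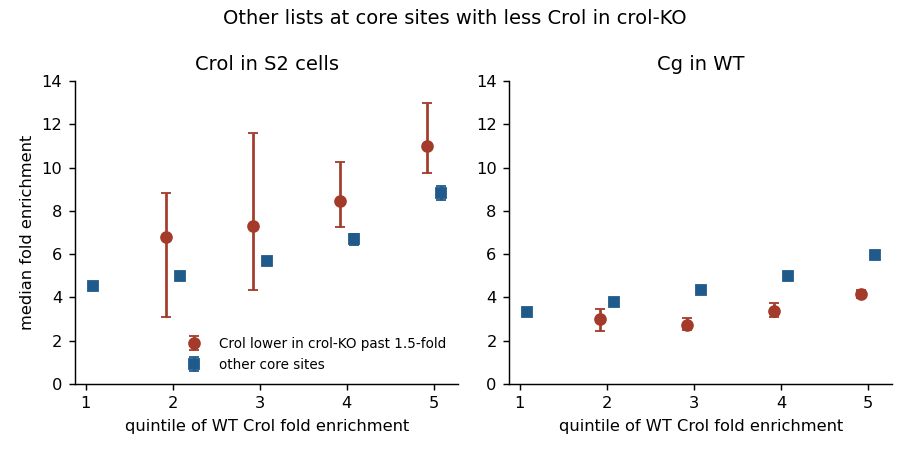
Median fold enrichment (vertical axis) of Crol in S2 cells (left) and of Cg in WT (right) at core sites whose Crol pileup was lower in crol-KO past 1.5-fold and at the other core sites, by quintile of WT Crol fold enrichment (horizontal axis, 1 weakest, 5 strongest), with 95% intervals of the median. In quintile 5 the S2 medians are 10.98 and 8.81 and the Cg medians 4.15 and 5.93; the weakest quintile held only 2 lower sites and has no point for them.

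At core sites on X, each of the ratios between lists lay outside the range of the long autosome arms. The median Crol ratio of crol-KO to WT was 1.19 (1.17 to 1.21) at the 748 core sites on X and 1.11 (1.10 to 1.12) at the 3596 on 2L, 2R, 3L and 3R, and the median Cg ratio was 1.17 (1.14 to 1.18) and 1.06 (1.05 to 1.07). The ratio of Crol in S2 cells to WT went the other way, with 0.995 (0.961 to 1.05) on X and 1.36 (1.35 to 1.38) on the long autosome arms. The difference was not limited to core sites. Over all WT Crol peaks matched in the other list, the median ratio of crol-KO to WT was 1.12 on X and 1.06 to 1.09 on the long autosome arms, and that of S2 cells to WT was 1.04 and 1.34 to 1.43. The control also differed between arms. In crol-KO relative to WT, the local background at core sites had a median ratio of 0.981 (0.968 to 0.995) on X and 0.942 (0.937 to 0.946) on the long autosome arms. On chromosome 4 this background ratio was 0.908 (0.864 to 0.944), the lowest of all arms. In S2 cells the local background at the median X site was 1.00 times the genome-wide one, the lowest value this measure can take. The S2 median was 1.43 to 1.72 on the long autosome arms and 1.19 on chromosome 4. The part of the control in these ratios was not tested. On chromosome 4 the Crol ratio of crol-KO to WT was 1.27 (1.16 to 1.32) and the Cg ratio 1.09 (1.05 to 1.18), from 52 sites.

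**Figure D5:**
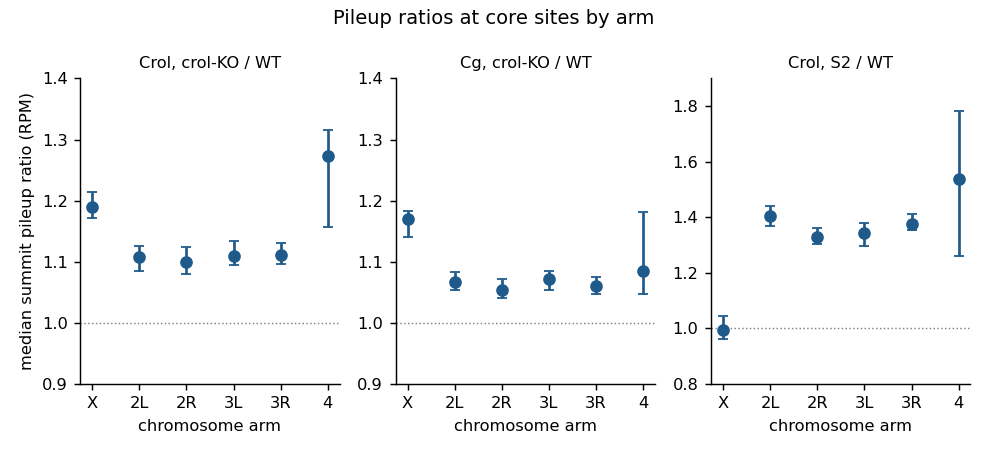
Median ratio of the summit pileup in RPM (vertical axis) at core sites on each chromosome arm (horizontal axis), for Crol in crol-KO to WT, Cg in crol-KO to WT and Crol in S2 cells to WT, with 95% intervals of the median and a dotted line at 1. The vertical scale does not start at 0 and is wider for S2 cells. X lies above the long autosome arms in the first 2 panels (1.19 and 1.17) and below them in the S2 panel (0.995).

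The spacing of core sites was measured between the summits of neighbours. The median distance to the nearest core site was 5339 bp, and 48.1% (46.6 to 49.6) had another within 5 kb, against 30.9% (28.8 to 33.1) of the 1787 larval sites absent from S2 and 7.06% (4.88 to 9.83) of the 453 Crol sites without Cg, each measured within its own set. Over all 9352 narrow WT Crol peaks, 66.4% (65.4 to 67.3) had another within 5 kb, with a median nearest distance of 3079 bp. These sets differ in size, and sparser sets have more distant neighbours, so the shares cannot be compared as measures of clustering. Joined at 5 kb, the core sites formed 890 chains of 2 or more sites and left 2282 single sites. Of the chains, 652 held 2 sites and 174 held 3, and 1 chain held 7.

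The longest chain ran on 3R from 5902403 to 5919580, with 7 core sites in 17178 bp. Its WT Crol fold enrichments ran from 2.45 to 8.47 and those of S2 cells from 2.35 to 10.1, and its Crol ratios of crol-KO to WT from 0.94 to 1.79 with a median of 1.08. The region held between 8 peaks in the S2 list and 11 in the WT Cg list. The next 2 chains, with 6 core sites each, were both on X and differed in the direction of the Crol ratio. From 6754183 to 6763113 the median Crol ratio was 0.741, with a range of 0.573 to 1.19, and from 3580578 to 3590031 it was 1.35, with a range of 0.527 to 1.65. The median Cg ratios were 1.03 and 1.14. The measured ratios thus varied between core sites of 1 chain. The part of counting error and of summit position in this was not tested.

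The most isolated core site was on 3L from 24021391 to 24021803, with no other core site for 289904 bp on the left and 508985 bp on the right. It had 57 reads (Crol WT), 82 (Crol crol-KO), 44 (Cg WT), 60 (Cg crol-KO) and 145 (Crol S2), with fold enrichments between 4.71 and 7.69. Its 5 summits lay within 39 bp, and its ranks were alike, between 15.2% and 25.7% of each list.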

How the data were processed

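The data used were 5 peak lists, each from 2 pooled samples of 1 group, and the other 24 of the 34 samples of the series were not analysed here. As the study's methods and the submitters' processing notes give it, the authors trimmed reads (Trim Galore 0.6.5), aligned them to dm3 (Bowtie2 2.3.5), removed duplicates (SAMtools 1.13), pooled replicates and called narrow peaks with MACS2 2.2.5 at a q-value of 0.05 after extending reads to 300 bp. A deposited list holds the peak, its summit, a score, the fold enrichment (a ratio of summit pileup to local background), and the −log10 p-value and −log10 q-value. The control behind the fold enrichment is not given in the sources used here. Between 332 and 357 peak numbers are skipped in each list, and those peaks were not analysed here.

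Pileup and background were solved from fold enrichment, (pileup + 1) over (background + 1), and the Poisson p-value, which gave a whole-number pileup for 100% of peaks in every list. The lowest background of a list gave its reads, for 300 bp reads and a genome of 120 Mb. At each core site the peak with the largest overlap was taken from each other list. Calculations used Python 3 with numpy, pandas and scipy, and the code was tested on simulated data. With 1 list per group there was no test and no p-value. The named sites were the 8 with the best worst rank, the strongest of each list, the extremes of both crol-KO to WT ratios (3 and 3 for Crol, 2 and 2 for Cg), the 3 longest chains, the 3 sites on each side of the width limit, the 3 with the worst best rank and the most isolated. The members, the lists and the comparisons were chosen with earlier results of these data known. Genes, motifs and sequence at the sites were not analysed, because coordinates are those of dm3 and no genome of that build was used here. Positions are 1-based.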

Additional observations from a re-analysis of the deposited data

Results flagged for a closer look

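Outside the arms that define the core sites, on the heterochromatic sequences of the assembly, 37 WT Crol peaks were under 1200 bp wide, and 25 of them overlapped a peak in all 4 other lists. Their median fold enrichment for Crol in WT was 4.05. They are given here because they entered no comparison above, and nothing is read from their number, since the same overlap rule chose them.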

How the results depend on the processing

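The count of core sites kept within 1.5 times of 4396 under each alternative, from 3083 with a reciprocal overlap of 50% to 5111 with any peak within 1000 bp. The share of WT Crol peaks in the core moved from 47.0% to 32.97% and 54.7% under these settings, to 48.3% with a −log10 q of at least 5, to 49.2% with no width limit and to 54.1% of WT Cg peaks when those were the anchor. The median distance between Crol and Cg summits was 32 bp with the reciprocal overlap. The share with all 5 summits within 50 bp moved to 53.8% for 100 bp, to 26.9% with the reciprocal overlap and to 23.3% with the stricter q. The median crol-KO to WT ratio became 1.04 for Crol and 1.01 for Cg when centred on all matched peaks, 1.18 and 1.135 as a ratio of fold enrichments, and 1.11 and 1.06 without X, an alternative added after the values were known, as was that of summits within 100 bp. Past 1.5-fold, the higher Crol sites numbered 180 after centring, and at 2-fold 43 were higher and 87 lower, 130 in all. The share with a core site within 5 kb was 21.3% at 2 kb, 68.7% at 10 kb and 44.8% with the stricter q. Of 35 alternatives, 13 stayed within the interval or 1.5 times the count.

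The alternatives for runs of guanine were not run, since they need the dm3 sequence. No paired analysis was possible because the authors called peaks on pooled reads, and for the same reason no replicate was left out. The depth of the lists, 3.42 M to 5.77 M reads, limits which weak sites appear in all of them.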
